A study of Drosophila melanogaster with 9 samples.

Results

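The genes for the proteins of the mitochondrial ribosome were examined on Affymetrix Drosophila Genome 2.0 arrays hybridised with total RNA of whole dechorionated Drosophila melanogaster embryos. A gene was taken where its probe set had 1 platform symbol that begins with mRpL or mRpS and a number. The 71 matching probe sets stood for 69 genes, of 11982 genes with a probe set of 1 symbol, and the probe set with the highest mean level stood for each gene. Of the 69 genes, 44 encode large subunit proteins (mRpL) and 25 encode small subunit proteins (mRpS). Bacterial numbers are carried by 27 of the large subunit genes (up to L36) and 13 of the small subunit genes (up to S21), and 17 and 12 have higher numbers. These classes go by number alone. The RefSeq table holds 73 genes of this naming. Not among the members are 4 of them, because mRpL34 and mRpL37 had no probe set matched to them and mRpL53 and mRpS10 share theirs with another gene.

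Mitochondria carry their own ribosome, whose RNAs are encoded in mitochondrial DNA while its proteins are encoded in the nucleus, made in the cytosol and imported. It translates the few hydrophobic subunits of the respiratory chain and of ATP synthase that mitochondrial DNA still encodes, so its protein genes and the nuclear respiratory chain genes serve the same machinery. Some of its proteins descend from bacterial ribosomal proteins and keep their numbers, and most of those with higher numbers were added in the mitochondrial lineage. In the fly embryo, mitochondria and much of their RNA are supplied by the mother before zygotic transcription takes over.

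The series has 3 groups of 3 arrays from embryos at stages 10 to 13, a window that the labels place from germ band retraction to dorsal closure. The first is labelled overexpression and has the genotype 69BGal4>UAS-Cbt, a Cbt transgene under an epidermal Gal4 driver. The second is homozygous for the cabut allele cbtEP(2)2237E1, with mutants sorted as embryos without GFP from a stock carrying the CyO, twi-eGFP balancer. The third is w1118, the control. Cabut (Cbt) is a transcription factor with zinc fingers, required in dorsal closure. About 1000 embryos went into each overexpression and mutant sample. For w1118 the sources used here do not give that number. No driver-only or transgene-only control was analysed here, and the driver acts in the epidermis while the RNA came from the whole embryo. The labels do not say whether the samples of a group were collected separately, and the p-values therefore cover no more than the differences among these samples, possibly technical ones.

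The targeted gene did not follow one of the labels. The cbt probe set stood at log2 levels of 3.17, 3.16 and 3.74 on the arrays labelled overexpression, at 4.25, 4.70 and 3.85 on the mutant arrays and at 6.22, 6.05 and 7.90 on the w1118 arrays, lowest where excess was labelled. In limma on 9 arrays, the cbt difference from w1118 was -3.37 for the overexpression label (limma adjusted p = 0.0436). For the mutant it was -2.46 and was not called (limma adjusted p = 0.19). The array label is therefore used below without taking it as a measured excess of cbt. The w1118 arrays were also split. Poly-A spike-in controls, which are added to the RNA before labelling, had mean levels of 3.09 to 4.03 under the overexpression label and 3.70 to 3.95 in the mutant. In w1118 their mean was 3.79 for replicate 2 and only 1.91 and 2.42 for replicates 1 and 3. On each array, the deviation of a probe set from its own mean over the 9 arrays was set against gene length. Over 6075 probe sets with a mean level over 2, Spearman rho lay between -0.39 and 0.00 on 7 arrays. The remaining arrays, w1118 replicates 1 and 3, gave 0.49 and 0.48. Each deviation is relative to all 9 arrays, so the values of different arrays are not independent. Of 16 listed embryonic patterning and tissue genes, 10 were measured, and all 10 exceeded the background level on each array. Their median level was 4.68 to 4.99 with the overexpression label, 4.69 to 5.22 in the mutant and 5.13 to 6.25 in w1118. The median of 5 measured muscle genes was 0.91 to 1.29, 2.31 to 3.45 and 1.16 to 5.63 in the same groups, with w1118 replicate 2 at 1.16, and 0 of the 5 passed in any comparison. Adult and ovary genes, 7 of them measured, had a median of 0.69 to 1.25 over the 9 arrays, with Cp38 (an eggshell gene) above the background level on all 9 arrays and Yp1 (a yolk protein gene) on none. The 3' minus 5' log2 difference of control probe sets also varied. For actin it was 4.13 to 4.45 under the overexpression label, 4.55 to 4.82 in the mutant and 4.03 to 4.55 in w1118. For GAPDH it was 4.97 to 5.17, 5.26 to 5.68 and 4.69 to 5.23 in the same order. For eIF-4a it was 2.53 to 2.84, 2.86 to 2.92 and 2.64 to 3.67. Except where a value states so, the parts of these values, spike-in level, length trend and muscle genes in the differences below were not tested.

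All 69 mitoribosomal genes exceeded the background level, taken as the highest Tag control probe set of an array, on each of the 9 arrays. Their log2 levels ran between 2.00 and 9.27. The median over the 69 genes was 6.92, 7.12 and 7.23 on the arrays labelled overexpression, 6.48, 6.05 and 6.36 on the mutant arrays and 5.32, 6.83 and 4.96 on the w1118 arrays. The overexpression-labelled arrays were thus the highest, the mutant arrays lay below them, and the w1118 arrays spread over a wider range than the other 6 together. Replicate 2 of w1118 lay above all 3 mutant arrays, and replicates 1 and 3 lay below them. In whole embryos, fewer cells of a type and less RNA per cell cannot be told apart.

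**Figure D1:**
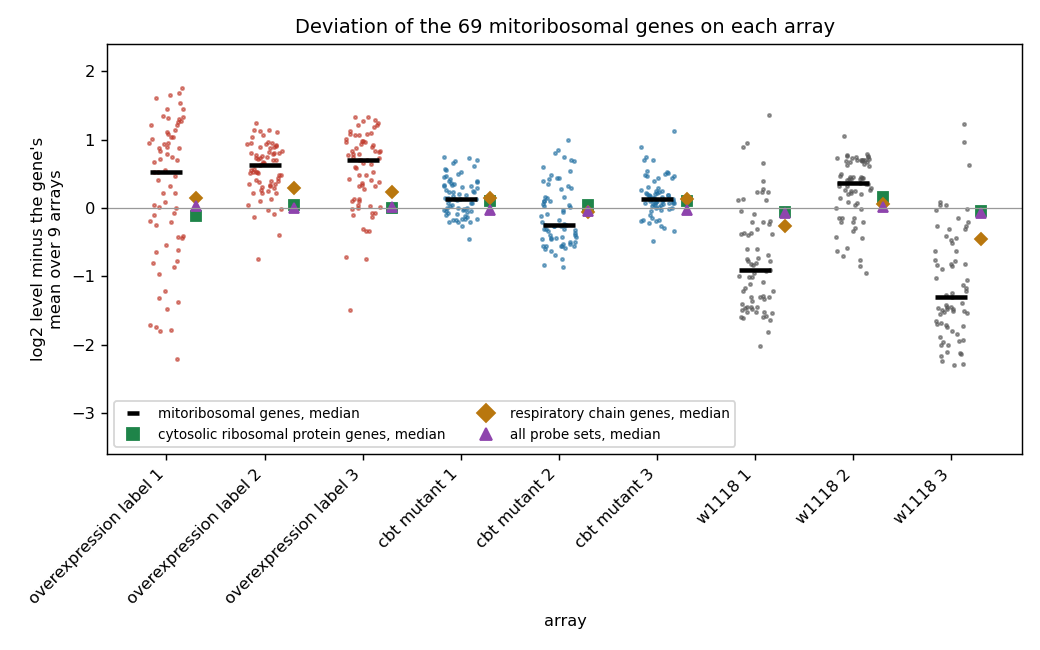
Each point is 1 of the 69 mitoribosomal genes on 1 array, plotted as its log2 level minus that gene's mean over the 9 arrays (vertical axis), with arrays along the horizontal axis. Black bars are the medians of the 69 genes, and the other symbols are the medians of cytosolic ribosomal protein genes, respiratory chain genes and all probe sets. The black bars lie at 0.53, 0.63 and 0.70 on the overexpression-labelled arrays, at 0.13, -0.25 and 0.13 on the mutant arrays and at -0.91, 0.36 and -1.30 on the w1118 arrays, while the medians of all probe sets stay between -0.08 and 0.03.

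Most of the genes shared one profile over the 9 arrays. As a description, 787 of the 2346 pairs of genes had a Pearson r over 0.9 across the 9 arrays, 586 had a negative r, and the median r was 0.68. The points of each pair share the same arrays and their group means. Set against the median profile, 41 genes had an r over 0.9 and 12 had a negative one. The genes fell into classes by their behaviour in the controls. For 53 of 69 genes (76.8%, against 54.2% of all probe sets) w1118 replicate 2 lay above both other w1118 arrays. For 9 genes, mRpL15, mRpL18, mRpL28, mRpL43, mRpL50, mRpS2, mRpS9, mRpS11 and mRpS30, it lay below both, and for 7, mRpL1, mRpL3, mRpL12, mRpL13, mRpL44, mRpL48 and mRpS23, it lay between them. The share with w1118 replicate 2 above both differed with gene length. It was 85% for members at most 1000 bp long and 65.5% for longer members. Among all probe sets with a mean level over 2, the same shares were 71.5% and 34.8%. The median SD of the 69 genes within a group was 0.22 for the overexpression-labelled arrays, 0.25 for the mutant arrays and 0.98 for w1118. Replicate 1 of the overexpression label stood apart for a minority of the genes, lying more than 0.5 below the mean of its other 2 replicates for 20 genes.

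**Figure D2:**
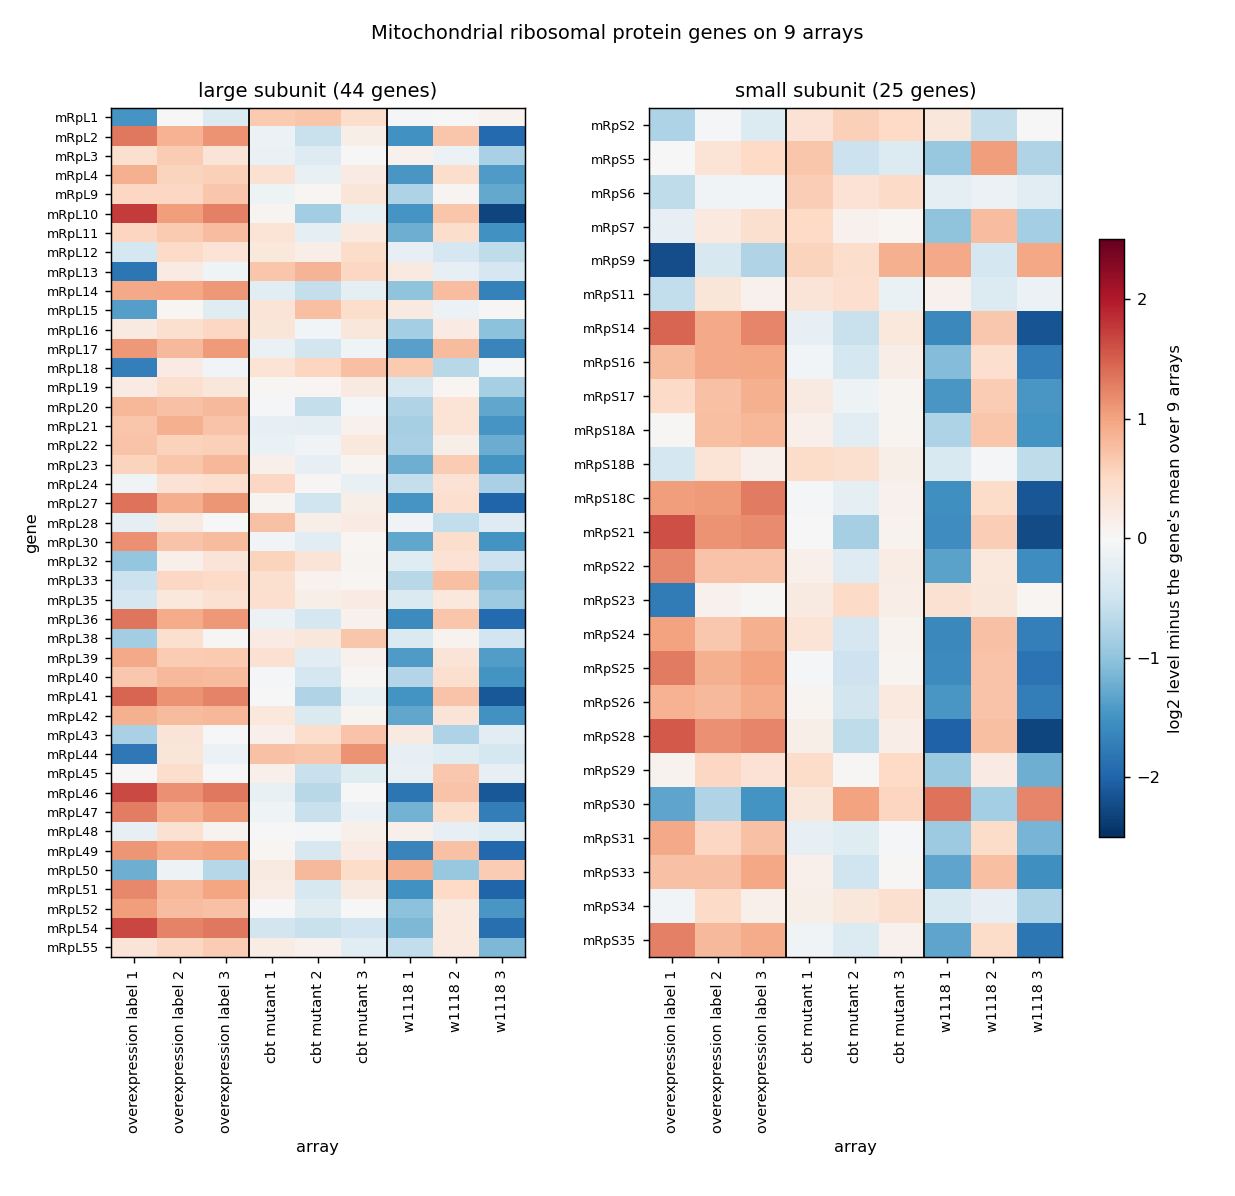
Rows are the 44 large subunit genes (left) and 25 small subunit genes (right), columns are the 9 arrays, and colour is the log2 level minus the gene's mean over the arrays. Most rows are red on the overexpression-labelled arrays and on w1118 replicate 2 and blue on w1118 replicates 1 and 3, and rows such as mRpS9, mRpS30 and mRpL50 run the other way.

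Overexpression label against w1118 asks what accompanies the transgene. The median log2 difference over the 69 genes was 1.28, against 0.09 over all probe sets tested, with 57 genes positive (82.6%, against 60.4% of all probe sets) and 12 negative. The differences spread between -1.77 for mRpS30 and 2.49 for mRpS28. In limma's moderated test, adjusted by Benjamini-Hochberg over 18769 probe sets, 0 of 69 genes passed 0.05, where 0.373% of all probe sets did. The smallest adjusted p of limma was 0.0858, for mRpL54. At an unadjusted p under 0.05, 43 genes were higher (62.3%, against 16.3% of all probe sets) and 2 were lower (2.9%, against 15.6%), namely mRpS9 and mRpS30. All 3 overexpression-labelled arrays lay above all 3 w1118 arrays for 38 genes (55.1%, against 17.0% of all probe sets), and for 0 genes did they all lie below (against 12.0%). Of the 648 probe sets at most 1000 bp long with a mean level over 2, 435 had a positive difference. Wholly above w1118 lay 173 of the 648, and wholly below 73.

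The result turned on w1118 replicate 2. Without that array, limma called 48 genes higher and 3 lower (mRpL50, mRpS9 and mRpS30), where 40.6% of all probe sets were called, 19.6% higher and 21% lower. With it as the only control array, the median difference over the genes was 0.26 in place of 1.28. Array by array, 41, 59 and 58 of the 69 genes were higher on overexpression replicates 1, 2 and 3 than on w1118 replicate 2.

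In the large subunit, 37 genes were positive and 7 negative against w1118, with a median of 1.31. mRpL54, which has no bacterial counterpart, stood at 7.58, 7.14 and 7.23 on the overexpression-labelled arrays, at 5.45, 5.35 and 5.42 on the mutant arrays and at 4.79, 6.15 and 4.02 on the w1118 arrays. No overexpression-labelled array overlapped any other array, and the mutant values lay inside the w1118 range. The difference from w1118 was 2.33 log2 units (SE 0.46, 5.04-fold) and had a limma adjusted p of 0.0858. mRpL46 read 8.16, 7.66 and 7.84 with the overexpression label, 6.33, 5.82 and 6.50 in the mutant and 4.70, 7.22 and 4.39 in w1118, with the same order of groups. Its difference from w1118 was 2.45 (SE 0.67, limma adjusted p = 0.0963).

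mRpL10, a protein of the flexible stalk that recruits translation factors, read 8.24, 7.52 and 7.75 with the overexpression label, 6.56, 5.61 and 6.29 in the mutant and 5.01, 7.17 and 4.19 in w1118. All overexpression-labelled arrays were above all others, and w1118 replicate 2 was above the mutant. The difference from w1118 was 2.38 (SE 0.68, limma adjusted p = 0.0970). mRpL12, the partner of mRpL10 in that stalk, did not share this order. It read 6.16, 7.09 and 6.94 with the overexpression label, 6.87, 6.77 and 7.07 in the mutant and 6.40, 6.18 and 5.98 in w1118, with overexpression replicate 1 inside the w1118 range, and its difference from w1118 was 0.54 (SE 0.25, limma adjusted p = 0.172). The stalk genes were chosen for this pairing after their values were seen.

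Among proteins shared with bacteria, mRpL22, which lines the exit tunnel for the new chain, read 7.58, 7.43 and 7.45 with the overexpression label, 6.70, 6.77 and 7.12 in the mutant and 6.05, 7.01 and 5.61 in w1118. Its 3 overexpression-labelled values lay close together and above the rest, and its difference from w1118 was 1.27 (SE 0.32, limma adjusted p = 0.0954). mRpL9 differed from w1118 by 1.25 (SE 0.31, limma adjusted p = 0.0939) and mRpL52, with no bacterial counterpart, by 1.59 (SE 0.38, limma adjusted p = 0.0933). mRpL47 had 2 probe sets, and these differed by 1.91 and 2.20, in the same direction. mRpL30 and mRpL36 differed from w1118 by 1.66 and 2.07, and their overexpression-labelled arrays did not overlap w1118. mRpL33 differed by 0.48 and overlapped.

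In the small subunit, 20 genes were positive and 5 negative against w1118, with a median of 1.28. mRpS28 stood at 8.38, 7.98 and 8.06 with the overexpression label, at 6.99, 6.21 and 7.02 in the mutant and at 4.82, 7.59 and 4.55 in w1118. The overexpression-labelled arrays were above all others, and w1118 replicate 2 stood well above the other w1118 values. Its difference from w1118 was 2.49 (SE 0.73, 5.61-fold, limma adjusted p = 0.0975). mRpS22 differed by 1.75 (SE 0.45, limma adjusted p = 0.0957) and mRpS18C, 1 of 3 fly genes for the same bacterial protein, by 2.21 (SE 0.57, limma adjusted p = 0.0963). The others, mRpS18A and mRpS18B, differed by 1.07 and 0.35 from w1118, at limma adjusted p-values of 0.185 and 0.311.

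mRpS30 went the other way. It stood at 2.67, 3.23 and 2.49 with the overexpression label, at 4.27, 4.98 and 4.52 in the mutant and at 5.34, 3.13 and 5.21 in w1118. The overexpression-labelled and mutant arrays did not overlap, and w1118 replicate 2 lay among the overexpression-labelled values. The difference from w1118 was -1.77 (SE 0.56, limma adjusted p = 0.103). The protein is named for the small subunit, although its mammalian counterpart sits in the large one. mRpS9, whose bacterial counterpart reaches the transfer RNA in the decoding region, read 2.80, 4.61 and 4.27 with the overexpression label, 5.57, 5.45 and 5.90 in the mutant and 5.96, 4.57 and 5.98 in w1118, with the same overlap through w1118 replicate 2. The difference from w1118 was -1.61 (SE 0.53, limma adjusted p = 0.107). mRpS5 and mRpS7, both kept from bacteria, differed from w1118 by 0.50 and 0.52 and overlapped with it.

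**Figure D3:**
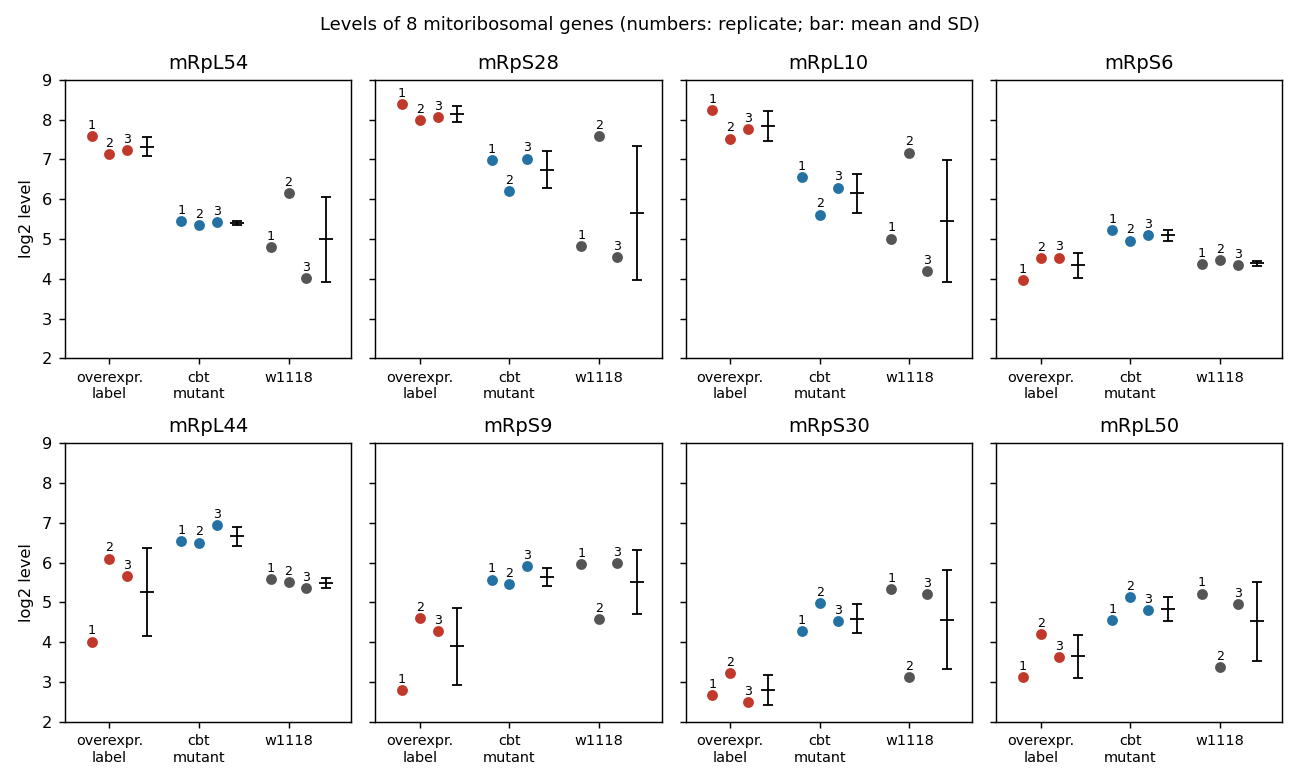
Log2 levels (vertical axis) of 8 mitoribosomal genes by group (horizontal axis), with 1 numbered point per replicate and a bar for the group mean and SD of 3 arrays. The overexpression-labelled points of mRpL54, mRpS28 and mRpL10 lie above all others, those of mRpS9, mRpS30 and mRpL50 lie below all mutant points, and w1118 replicate 2 lies apart from w1118 replicates 1 and 3 for 6 of the 8 genes, mRpS6 and mRpL44 being the exceptions.

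The cbt mutant against w1118 asks what accompanies the cbt allele. The median difference over the 69 genes was 0.68, against 0.01 over all probe sets, with 68 genes positive (98.6%, against 52.0% of all probe sets) and 1, mRpL45, negative. That median was 1.11 without w1118 replicate 2 and 0.32 without w1118 replicate 3. The range was narrow, from -0.34 for mRpL45 to 1.17 for mRpL44. In limma, 0 of 69 genes passed an adjusted p of 0.05, where 0.133% of all probe sets did, and the smallest adjusted p of limma was 0.299, for mRpS6. At an unadjusted p under 0.05, 11 genes were higher (15.9%, against 3.84% of all probe sets) and 0 lower (against 5.17%). The mutant arrays lay above all w1118 arrays for 11 genes (15.9%, against 5.38%) and below all for 0 (against 4.42%). Of the 648 probe sets at most 1000 bp long with a mean level over 2, 544 had a positive mutant difference. On the mutant arrays, 52 of those lay wholly above w1118 and 5 wholly below.

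This comparison also turned on w1118 replicate 2. Leaving that array out gave 47 genes called higher and 0 lower by limma, where 21.2% of all probe sets were called, 9.11% higher and 12.1% lower. Taking it as the only control turned the median difference over the genes to -0.34. Relative to it, 24, 20 and 24 of the 69 genes were higher on mutant replicates 1, 2 and 3.

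For mRpL44 and mRpS6 the 3 w1118 values lay close together. mRpL44, which has the fold of a double-stranded RNA nuclease, read 4.01, 6.10 and 5.66 with the overexpression label, 6.54, 6.50 and 6.93 in the mutant and 5.59, 5.50 and 5.36 in w1118. Mutant and w1118 arrays did not overlap, at a difference of 1.17 (SE 0.47, 2.25-fold, limma adjusted p = 0.530), and overexpression replicate 1 was the lowest of the 9. mRpS6, whose bacterial counterpart pairs with S18 on the ribosome platform, read 3.96, 4.51 and 4.53 with the overexpression label, 5.22, 4.96 and 5.09 in the mutant and 4.37, 4.46 and 4.34 in w1118. Its 3 mutant values were above all 6 others, at a difference of 0.70 from w1118 (SE 0.17, limma adjusted p = 0.299). mRpS34, a small subunit protein absent from bacteria, stood at 5.20, 5.75 and 5.40 with the overexpression label, at 5.41, 5.56 and 5.67 in the mutant and at 4.89, 5.07 and 4.50 in w1118. The w1118 arrays were the lowest 3 of the 9, including replicate 2, with differences of 0.63 for the overexpression label (limma adjusted p = 0.0998) and 0.73 for the mutant (limma adjusted p = 0.355).

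The exception in direction, mRpL45, related to a protein of the mitochondrial import machinery and placed near the exit tunnel in mammals, read 5.91, 5.21 and 5.48 in the mutant against 5.59, 6.45 and 5.57 in w1118, and the groups overlapped. mRpS28 and mRpS18C had the other large positive differences, 1.09 and 1.01, and their w1118 replicate 2 lay above all mutant values. mRpS2 and mRpL18 differed from w1118 by 0.60 and 0.56 in the mutant, and mRpS23 and mRpS30 by 0.05 and 0.03.

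**Figure D4:**
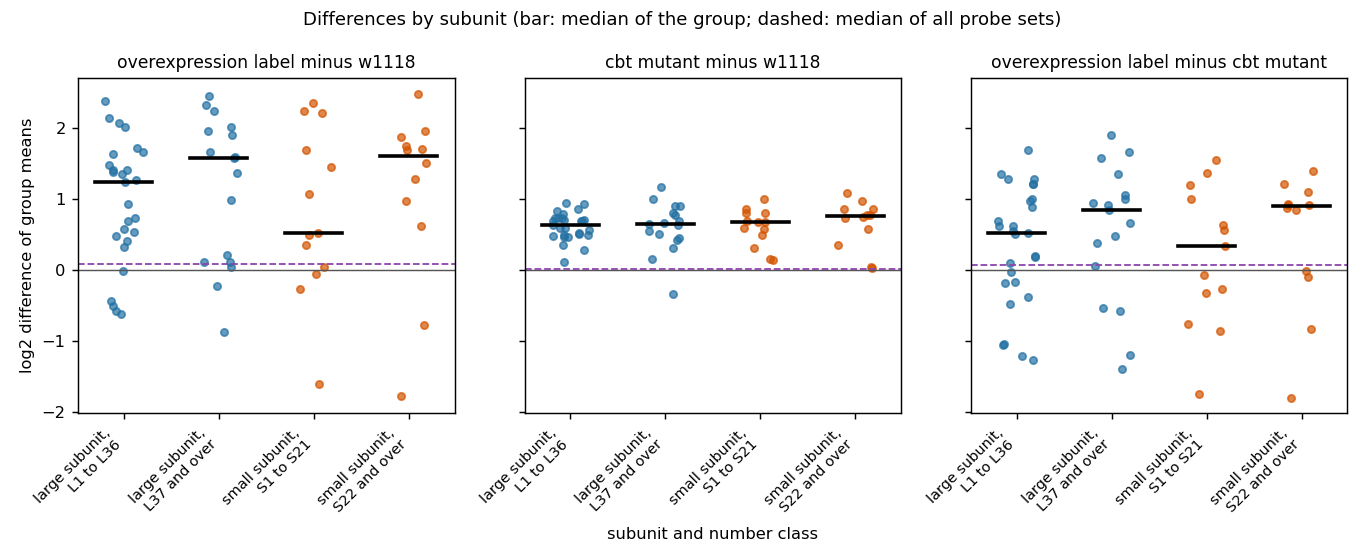
Each point is the log2 difference of group means (vertical axis) of 1 gene, by subunit and number class (horizontal axis), for the 3 comparisons. Bars are class medians and the dashed line is the median of all probe sets. The mutant minus w1118 points lie between -0.34 and 1.17, while those of the overexpression label spread from -1.77 to 2.49 against w1118 and from -1.80 to 1.91 against the mutant.

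The overexpression label against the mutant leaves the split w1118 arrays out of the difference, although they still enter the shared estimate of spread. The label and mutant arrays themselves did not overlap in the 3' minus 5' differences of actin, GAPDH and eIF-4a, whose part was not tested. The median difference over the 69 genes was 0.62, against 0.08 over all probe sets, with 46 genes positive (66.7%, against 61.4%) and 23 negative, from -1.80 for mRpS30 to 1.91 for mRpL54. With the spread of all 9 arrays, 0 of 69 genes passed in limma, where 0.256% of all probe sets did, and the smallest adjusted p of limma was 0.112, for mRpS6. At an unadjusted p under 0.05, 11 genes were higher (15.9%, against 9.71% of all probe sets) and 9 lower (13%, against 9.17%). The overexpression-labelled arrays lay above all mutant arrays for 39 genes (56.5%, against 22.4%) and below all for 11 (15.9%, against 16.2%). The share below was thus near that of all probe sets, many of which are dim. Of the 6925 probe sets with a mean level over 2, 1453 lay wholly above the mutant and 2457 wholly below. The F test of limma for any difference among the 3 groups passed 0 of 69 genes, where 0.389% of all probe sets passed, and at an unadjusted p under 0.05 it took 47 (against 24.7%).

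One of the alternatives fitted only the 2 groups compared. It called 0 genes for the overexpression label over w1118, where 0.0959% of all probe sets were called, and 0 for the mutant over w1118. For the label over the mutant, the fit on these 6 arrays gave calls. limma then called 34 genes higher with the overexpression label (49.3%, against 6.28% of all probe sets) and 5 lower (7.25%, against 7.54%). Leaving out overexpression replicate 3 left 2 called higher (mRpL14 and mRpL54) and 0 lower. With that array left out, 0.362% of all probe sets were called higher and 0.368% lower. The counts were 15 and 2 without overexpression replicate 1 (against 2.43% and 2.42% of all probe sets), 19 and 3 without replicate 2 (against 3.16% and 3.65%), and 27 to 34 and 1 to 3 without a mutant array (against 3.03% to 6.46% and 2.62% to 11.8%). With the gene length trend removed from each array they were 31 and 5 (against 6.79% and 9.7%). In the fit on 3 groups without w1118 replicate 2 they were 34 and 6, where 16.0% of all probe sets were called, 7.13% higher and 8.85% lower.

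By subunit and number, 12 of 27 large subunit genes with bacterial numbers were called higher and 0 lower, and 9 and 1 of the 17 with higher numbers. In the small subunit, 5 and 3 of 13 genes with bacterial numbers were called higher and lower, and 8 and 1 of 12 with higher numbers. In the same order of classes the shares called higher were 44.4%, 52.9%, 38.5% and 66.7%, against 6.28% of all probe sets. The shares called lower were 0%, 5.88%, 23.1% and 8.33%, against 7.54%. The class medians were 0.53, 0.85, 0.34 and 0.90, and differences between classes were not tested.

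In this fit mRpL54 rose by 1.91 log2 units over the mutant (SE 0.14, 3.77-fold, limma adjusted p = 0.00284). mRpL14, which in bacteria sits at the interface between the subunits, rose by 1.35 (SE 0.14, limma adjusted p = 0.00556). It stood at 7.52, 7.54 and 7.66 with the overexpression label and at 6.32, 5.98 and 6.36 in the mutant, with no overlap. mRpL10 rose by 1.69 (SE 0.29, limma adjusted p = 0.0176), mRpL46 by 1.67 (SE 0.22, limma adjusted p = 0.00968) and mRpS28 by 1.40 (SE 0.25, limma adjusted p = 0.0181). mRpL22 passed at 0.63 (limma adjusted p = 0.0353), and it was not called after cyclic loess, quantile normalization, setting the array medians equal or removing the length trend.

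The share of genes called lower was near that of all probe sets, many of which are dim. Among probe sets with a mean level over 2, 13% of those at most 1000 bp long and 18.9% of the longer ones were called lower. The 5 members called lower are given as values. They were mRpS30 by 1.80, mRpS9 by 1.75, mRpL50 by 1.19, mRpS2 by 0.86 and mRpS6 by 0.76 on the log2 scale, with limma adjusted p-values between 0.0113 and 0.0496. Of these, mRpS9 and mRpS6 were not called after cyclic loess, and mRpS30 alone was called after quantile normalization. mRpL50 stood at 3.12, 4.20 and 3.62 with the overexpression label and at 4.56, 5.14 and 4.80 in the mutant, with no overlap. mRpS2 stood at 3.54, 4.28 and 3.98 with the label and at 4.67, 4.91 and 4.82 in the mutant, again apart. For mRpL44, mRpL13, mRpL1, mRpL18 and mRpL15 the difference was larger than 1 unit downward, from -1.40 to -1.04, and missed the threshold, with limma adjusted p-values between 0.0745 and 0.195. On each of those 5 genes overexpression replicate 1 was the lowest of its group.

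**Figure D5:**
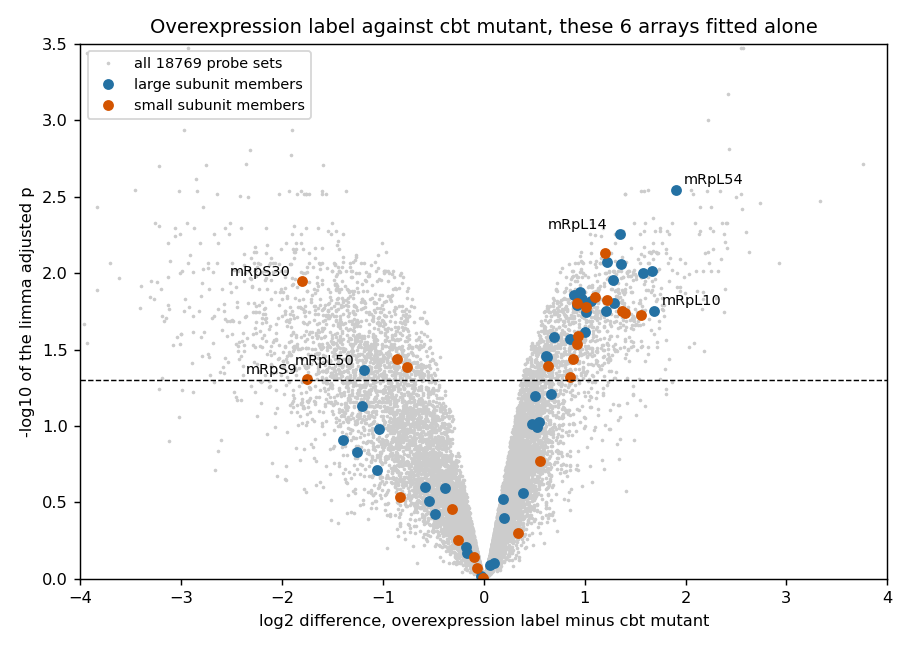
Each grey point is a probe set and each coloured point a mitoribosomal gene, with the log2 difference of overexpression label minus cbt mutant on the horizontal axis and -log10 of the limma adjusted p on the vertical axis, from the fit on these 6 arrays. The dashed line is the threshold of 0.05. Above it lie 34 genes on the right and 5 on the left, and 20 probe sets outside the plotted range are not drawn.

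The genes tko and bonsai encode further proteins of the same ribosome and fall outside the naming rule. tko (technical knockout), the small subunit S12 protein of the decoding centre, whose mutants are sensitive to mechanical shock, stood at 8.78, 8.29 and 8.53 with the overexpression label, at 7.22, 6.40 and 7.17 in the mutant and at 5.87, 7.76 and 4.99 in w1118. Its overexpression-labelled values were the highest, as for mRpS28, and in the fit on 6 arrays it rose by 1.60 over the mutant (SE 0.25, limma adjusted p = 0.0145). bonsai, the S15 protein of the small subunit, stood at 1.64, 3.94 and 3.64 with the overexpression label, at 5.34, 5.99 and 5.57 in the mutant and at 5.75, 3.57 and 5.59 in w1118. It fell by 2.56 against the mutant in that fit (SE 0.59, limma adjusted p = 0.0358), and its w1118 replicate 2 lay among the overexpression-labelled values, as for mRpS9.

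Other genes of mitochondrial translation and gene expression, tko and bonsai included, were taken from a list of 65 names, of which 44 had a probe set. Their median difference was -0.14 for the overexpression label over w1118, 0.15 for the mutant over w1118 and -0.16 for the label over the mutant, and 0 of 44 passed limma on 9 arrays in any comparison. At an unadjusted p under 0.05 the counts higher and lower were 11 and 10 (against 16.3% and 15.6% of all probe sets), 5 and 3 (against 3.84% and 5.17%), and 7 and 8 (against 9.71% and 9.17%) in that order. On the 6 arrays alone, 5 rose (11.4%, against 6.28% of all probe sets) and 4 fell (9.09%, against 7.54%). Those that rose were tko, the elongation factors mEFTu1 (1.42) and mEFTs (0.63), the messenger RNA binding protein Lrpprc2 (1.68) and the mitochondrial phenylalanyl-tRNA synthetase PheRS-m (0.66). Those that fell were bonsai, the RNA-binding protein bsf (-1.23), Rlb1 (-0.78) and mRRF2, which was not above the background level with the overexpression label. The 2 genes with the smallest F-test p on 9 arrays were OXA1L, which inserts proteins into the inner membrane, and PheRS-m, at limma adjusted p-values of 0.129 and 0.133.

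Beside these stand the cytosolic ribosomal protein genes and the respiratory chain genes, as values only. For 41 cytosolic ribosomal protein genes the median differences were -0.04 for the overexpression label over w1118, 0.15 for the mutant over w1118 and 0.01 for the label over the mutant, and on 6 arrays 4 rose (9.76%, against 6.28% of all probe sets) and 7 fell (17.1%, against 7.54%). For 72 nuclear respiratory chain genes they were 0.37, 0.52 and 0.20, and on 6 arrays 14 rose (19.4%) and 10 fell (13.9%). Among probe sets with a mean level over 2, 27.5% of those at most 1000 bp long rose and 13% fell. Of the longer ones 11.9% rose and 18.9% fell. Differences between these lists and the mitoribosomal genes were not tested.

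Gene length moved with the differences. The median gene length of the 69 genes was 909 bp, against 2569 bp over all probe sets with a length, and 40 genes were at most 1000 bp long. For those 40 genes the median differences were 1.44, 0.69 and 0.85 (label over w1118, mutant over w1118, label over mutant), and for the 29 longer ones 0.73, 0.59 and 0.34. All probe sets at most 1000 bp long with a mean level over 2, 648 in number, had medians of 0.59, 0.56 and 0.16, and the 5427 longer ones -0.43, 0.06 and -0.31. On 6 arrays, 27.5% of those 648 were called higher and 13% lower, and 11.9% and 18.9% of the 5427 longer ones. Within the 69 genes the Spearman rho of length and difference was -0.33, -0.16 and -0.32, a description over genes that share the arrays. With the length trend removed from each array, the median differences of the mitoribosomal genes were 1.11, 0.59 and 0.49, against 1.28, 0.68 and 0.62 without.

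The members lie on 3R (19), 3L (17), 2L (12), X (11) and 2R (10), and no pair of them is adjacent in the RefSeq table. For the 12 genes on 2L the median differences were 0.44, 0.69 and 0.00, against 1.63, 0.68 and 0.90 for the 10 on 2R, and differences between chromosome arms were not tested. mRpS11, the other gene with 2 probe sets, gave 0.05 and 0.06 for the label over w1118 and 0.31 and 0.15 for the mutant, so both probe sets of each such gene had the same sign.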

How the data were processed

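Biotin-labelled total RNA was hybridised to 1 Affymetrix Drosophila Genome 2.0 array per sample. The deposited table gives each probe set's level on every array on the log2 scale. Per the submitters' processing notes the tools were RMA, affy and limma, with no versions named. The sources used here do not give the chip definition or a filter. Of 18952 probe sets, 183 Affymetrix controls were left out. Symbols came from the platform annotation, and gene lengths and neighbours from RefSeq (assembly Release 6 plus ISO1 MT), where 69 of 69 members matched by gene ID. No genome build is named, so no coordinates are given.

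All 9 arrays entered a single linear model of the 3 groups in limma 3.58.1 in R 4.3.3, with Benjamini-Hochberg adjustment over 18769 probe sets at 0.05. Having 3 arrays a group limits the precision. The procedure was tested on simulated data. The members and lists were chosen with earlier results of these data known. Named were cbt, called members, the 8 members with the smallest F-test p, the 3 largest differences each way per comparison, the 5 highest and 5 lowest mean levels, tko, bonsai and the called or 2 lowest-p genes of the translation list. Other names were chosen after their values were seen. Alternatives changed normalization, filters, arrays, weights, length trend, prior, probe set and replicate block.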

Additional observations from a re-analysis of the deposited data

How the results depend on the processing

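Under most alternatives for the fit on 9 arrays (medians set equal, cyclic loess, quantile normalization, 2 filters on dim probe sets, length trend removed, another variance prior, other probe set or symbol rules), 0 members were called in each comparison, as in the values reported. Array weights gave 51 higher and 3 lower for the overexpression label over w1118 (against 24.7% and 22.4% of all probe sets), 53 higher and 0 lower for the mutant over w1118 (against 12.9% and 15.5%), 31 higher and 8 lower for the label over the mutant (against 9.6% and 10.7%), and 60 in the F test (against 46.1%). Without single replicates, members called higher ranged from 0 to 48, 0 to 47 and 0 to 34 in the 3 comparisons, members called lower from 0 to 3, 0 to 0 and 0 to 6, and F-test calls from 0 to 50, with each highest count reached without w1118 replicate 2 (48, 47, 34 and 50). There the F test called 37.2% of all probe sets. All probe sets called without single replicates ranged from 11 to 7625, 12 to 3987 and 24 to 2999. When w1118 replicate 2 was the sole control, the median difference from it was 0.26 for the overexpression label and -0.34 for the mutant. Most members thus turned direction in the mutant, where 68 had been positive with all arrays. Direction was followed by name only for the members with the largest differences. Of those, mRpL50 turned to 0.26 with the overexpression label, and mRpS28 and mRpS18C turned to -0.85 and -0.52 in the mutant. The same setting left 40 members wholly above w1118 and 7 wholly below for the label (against 27% and 27.9% of all probe sets). For the mutant it left 18 above and 40 below (against 24.6% and 39.8%, so the 18 are near the background share). Members wholly below w1118 with the overexpression label numbered 2 with medians set equal and 2 with the length trend removed (15.1% of all probe sets in both), and 0 to 5 without single replicates (against 12.0% to 27.2%). For the mutant without single replicates, members wholly above w1118 ranged from 11 to 59 and wholly below from 0 to 2. The 59 and 2 came without w1118 replicate 2, where 28.4% and 20.3% of all probe sets lay wholly above and below, against 5.38% and 4.42% with all arrays. The cause was not tested.

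The label over the mutant fitted on its 6 arrays gave 34 higher and 5 lower (against 6.28% and 7.54% of all probe sets). The settings of that fit were chosen after seeing the data. Cyclic loess gave 3 lower (against 6.52% of all probe sets) and quantile normalization 1 lower (against 4.53%). Leaving out single replicates gave 2 to 34 higher and 0 to 3 lower (against 0.362% to 6.46% and 0.368% to 11.8%). Between samples with the same replicate number, deviations from the group means had correlations of -0.374 to 0.26. Samples with different numbers were not compared in this way, so these values cannot decide whether the numbers mark pairs. The main fit did not take them as pairs. With the replicate block, 0 members were called on 9 arrays and all probe sets called were 17, 11 and 30, against 70, 25 and 48. On 6 arrays the block gave 32 members higher and 5 lower (against 5.78% and 10% of all probe sets).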
